A study of Rattus norvegicus with 12 samples.

Results

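The hepatic response to growth hormone (GH) was measured in hypothyroid-orchiectomized (TXOX) male Sprague-Dawley rats on 4 two-colour arrays, which are 4 of the 12 arrays of the series. These arrays were chosen by their labels, which name the TXOXGH animals in the Cy5 channel and TXOX animals given vehicle in the Cy3 channel, and not by any measured value. Both groups had received methimazole, which blocks thyroid hormone synthesis, at 0.05% of the drinking water for 5 weeks, from postnatal day (PND) 59 until sacrifice on PND 94, and were castrated 2 weeks after methimazole was begun. By the stated schedule, the TXOXGH rats were given vehicle for 20 days and then vehicle plus recombinant human GH for 7 days. GH was given at 0.3 mg/kg/day in a pair of daily subcutaneous injections, whereas the TXOX rats were given vehicle alone. Treatment is stated to have begun 4 days after castration. Counted from there, the 20 and 7 days would end after the stated sacrifice on PND 94. The sources used here do not settle which of these dates or durations is wrong. Livers were taken 12 h after the last injection. Individual animals of the groups were compared on the arrays, and which TXOX animal was on which array is not given in the sources used here. The other 8 arrays, 4 with TXOX rats given 17β-estradiol (E2) and 4 with TXOX rats given E2 plus GH, had TXOX animals in the Cy3 channel too. E2 was given as the benzoate at 50 µg/kg on 5 days per week, as was vehicle, over a stated 27 days. The E2 plus GH rats are stated to have been given E2 for 20 days and then E2 plus GH for 7 days. The same conflict of dates applies to these durations and to the 27 days of E2. The E2 livers were taken 24 h after the last injection, as against 12 h for GH and for E2 plus GH. These 8 arrays were used for the estimate of the spread and for the 2 comparisons at the end.

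GH is released by the pituitary in pulses and acts on hepatocytes through the GH receptor, the kinase JAK2 and the transcription factor STAT5b. In rodent liver this pathway induces Igf1, the main source of circulating IGF-I, and the feedback inhibitors Socs2 and Cish, and the pulsatile pattern of males maintains male-type expression of cytochrome P450 and other genes. Thyroid hormone is needed for GH synthesis in the rat pituitary, so hypothyroid rats are GH deficient, and testicular hormones shape the male pattern of secretion. Because both channels came from hypothyroid and castrated animals, each ratio describes GH given on that background. GH given by injection also differs from endogenous pulses.

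The arrays carry 27648 spots in 48 printed blocks, and 27094 of the spots hold a long-oligonucleotide probe. On the 4 GH arrays 21261 to 22346 probe spots were unflagged, and 51.3% to 61.4% of probe spots stood above local background in at least 1 channel, that is, with more than 50% of their pixels above the local background plus 2 SD. The 8 arrays of the other treatments had 39.3% to 51.7%. The files and tables used here pair no probe with a gene, so the results are counts and values of probes. For the same reason Igf1, Socs2, Cish, cytochrome P450 genes and the markers of hepatocytes or other liver cells were not analysed here, and the labelled tissue could not be checked against its markers. Only the 2 probes with the highest and the 2 with the lowest measured mean ratios are given by their identifiers.

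GH changed 716 of the 20984 probes with a value on 3 or more of the 4 arrays (3.41%), 436 of them higher (2.08%) and 280 lower (1.33%) than in TXOX liver. To be called, a probe needed a limma-adjusted p under 0.05 (Benjamini-Hochberg over all probes tested) together with a mean log2 ratio of 0.58 or more, up or down. The raised probes had a median log2 ratio of 0.76 and the lowered probes one of −0.71, against −0.0028 over all probes tested. Of the raised probes 88 reached a log2 ratio of 1, 20 reached 2 and 12 reached 3, with a maximum of 5.27. Of the lowered probes 45 reached −1 and 0 reached −2, with a minimum of −2.00 after rounding. The GH channel of 68 of the 280 lowered probes was not above local background on any measured array, so the size of their change is uncertain. The same held for the TXOX channel of 89 of the 436 raised probes. The probe at the minimum, Rn30012374, was at −3.43 when background was subtracted. Why the lowered changes were smaller than the raised ones was not tested. Most changes were close to the threshold, since 215 raised and 160 lowered probes were under 0.75 in size. The raised probes had a median standard error of 0.154 and the lowered ones of 0.155, against 0.139 over all probes tested. In this design the dye and the treatment cannot be told apart, because GH carried Cy5 on every array. Without replicate 4, the count of changed probes was 426. The count of raised probes was 289 without replicate 3 and 255 without replicate 4, and that of lowered probes was 167 without replicate 2 and 171 without replicate 4. With no background correction 361 probes were changed, 225 higher and 136 lower. With a loess curve for each printed block 369 were changed, 196 higher and 173 lower. The same test on the deposited log2 ratios called 351 probes, 219 higher and 132 lower.

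**Figure D1:**
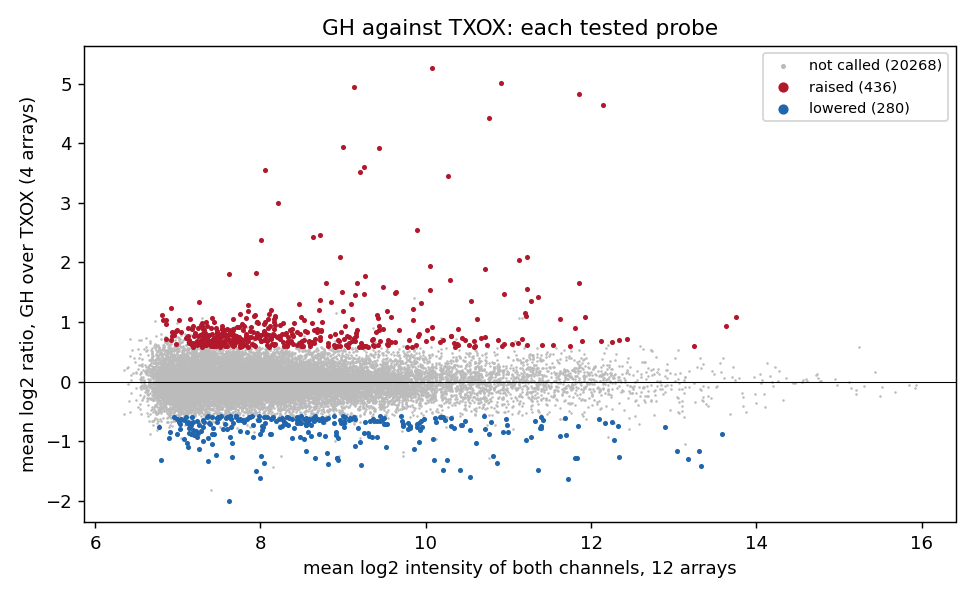
Mean log2 ratio of GH over TXOX on 4 arrays (vertical axis) against mean log2 intensity of both channels over the 12 arrays (horizontal axis), 1 point for each of the 20984 probes tested. The 436 raised probes reach 5.27, whereas the 280 lowered probes extend to −2.00.

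Replicates were close in direction. All measured arrays had the same sign in 435 of the 436 raised and 275 of the 280 lowered probes, against 32.7% of all probes tested. These shares describe the chosen probes, which had to be alike on the arrays to be called. The raised probes had a mean log2 ratio of 0.75, 0.95, 1.05 and 1.00 on replicates 1 to 4, so replicate 1 was the lowest. The lowered probes had a mean of −0.73, −0.90, −0.76 and −0.83, with replicate 2 the lowest. Over all probes tested the log2 ratios of any pair of GH arrays correlated across probes by 0.347 to 0.508.

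The probe with the largest measured mean ratio was Rn30016143, in printed block 38. Its log2 ratios on replicates 1 to 4 were 3.53, 5.48, 7.85 and 4.23, that is, 5.27 ± 1.90 (SD, n = 4; limma standard error 0.579, adjusted p = 4.78e-05). All 4 arrays were above 3, with replicate 3 well above the rest. Its median foreground intensity in Cy5 was 10032, 6482, 47087 and 11162, and in Cy3 it was 870, 231, 317 and 709. The TXOX channel of this probe was above local background only on replicates 1 and 4. Saturated pixels, 5%, 25% and 3% of the spot in Cy5, were present on replicates 1, 3 and 4.

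The second largest measured mean was that of Rn30009561, in printed block 10. Its log2 ratios were 3.69, 5.11, 5.87 and 5.39, or 5.01 ± 0.94 (SD, n = 4; limma standard error 0.315, adjusted p = 3.48e-07). The arrays were closer to each other than for Rn30016143, and replicate 1 was again the lowest. Its Cy5 intensity was 10076, 14035, 27027 and 24184, against 783, 474, 571 and 668 in Cy3. The TXOX channel was above local background on 3 of the 4 arrays, and 3 arrays held some saturated pixels. A pair of raised probes close behind, with mean log2 ratios of 4.83 and 4.65, had 31% to 94% of their Cy5 pixels saturated on the 4 GH arrays, so the ceiling of the scanner limits their ratios and the order of the highest probes is not settled.

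The probe with the lowest measured mean ratio was Rn30012374, in printed block 7, with log2 ratios of −2.41, −1.58, −2.39 and −1.61, or −2.00 ± 0.46 (SD, n = 4; limma standard error 0.203, adjusted p = 2.53e-05). Its Cy5 intensity after GH was 192, 198, 179 and 214, close to the local background of 145, 193, 130 and 140, and it was not above local background on any of the 4 arrays. In TXOX liver the Cy3 intensity was 596, 334, 717 and 602, above local background on all 4. The GH channel therefore gives only a bound. With the lowest signal of probes above local background on each array in place of a lower one, the probe was at least 2.08-fold lower after GH, a bound that is open to dye bias. With background subtracted, the log2 ratio was −3.43.

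Rn30012333, in printed block 8, was above local background in both channels on all 4 arrays and had the second lowest measured mean. Its log2 ratios were −0.85, −2.25, −1.72 and −1.77, or −1.65 ± 0.58 (SD, n = 4; limma standard error 0.272, adjusted p = 0.0019). Replicate 1 was nearest to 0 and replicate 2 farthest. The Cy5 intensity was 3886, 1491, 3238 and 3264, against 6641, 6518, 11007 and 10011 in Cy3.

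**Figure D2:**
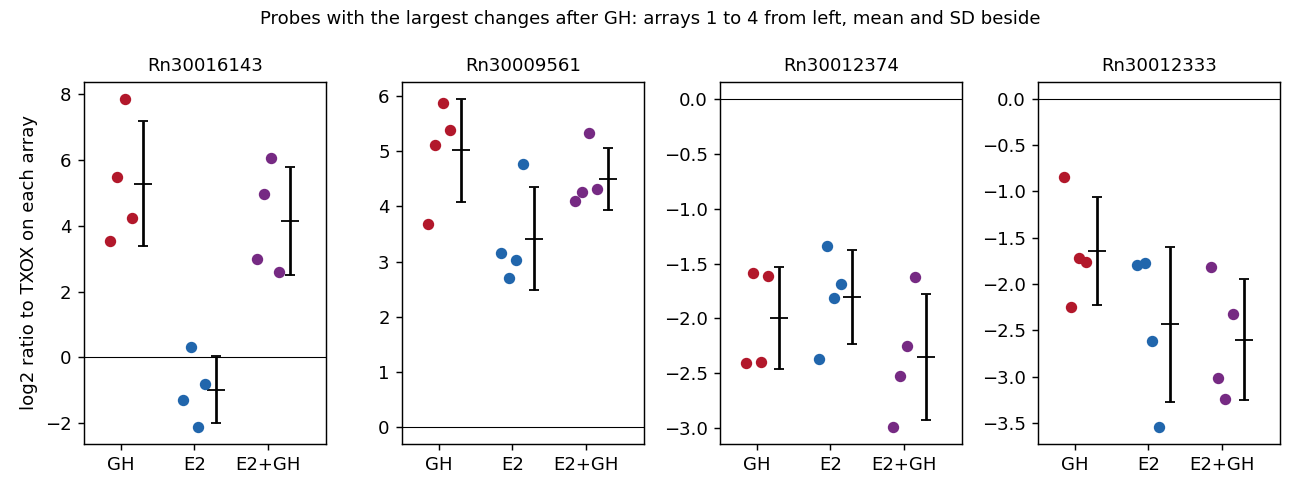
Log2 ratio to TXOX on each array for the 2 probes with the highest and the 2 with the lowest measured mean after GH, with arrays of GH, E2 and E2 plus GH (points, replicates 1 to 4 from left) and the mean and SD of each group (bar). Rn30016143 lies between 3.53 and 7.85 on the GH arrays and between −2.12 and 0.31 on the E2 arrays, whereas the other 3 probes lie on the same side of 0 in each group.

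The 15 raised and the 15 lowered probes with the largest changes, the same sign on every GH array and a signal above local background on all 4, were then described as lists. The 15 raised probes ran from 5.27 to 2.47 in mean log2 ratio, with single arrays between 0.66 and 7.85. They lay in 9 printed blocks, and 6 of them had saturated pixels on at least 1 GH array. The TXOX channel was above local background on all 4 arrays for only 4 of the 15. The tenth of these probes, at a log2 ratio of 3.55, was not above local background in the TXOX channel on any array and was at least 8.99-fold higher after GH. The 15 lowered probes ran from −2.00 to −1.30, with single arrays between −2.41 and −0.24, and lay in 11 printed blocks. All 15 were above local background in the TXOX channel on all 4 arrays. Without 1 GH array at a time, 28 to 30 of these 30 probes were called, and each kept its sign.

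Many smaller changes were measured near local background. Of the raised probes 161, and of the lowered probes 133, were above local background in both channels on all 4 arrays. In 89 raised probes the TXOX channel was not above local background on any measured array, and in 14 of these the GH channel was not either. For the other 75 raised probes the bound on the ratio had a median of at least 1.39-fold and a largest value of at least 8.99-fold. In 68 lowered probes the GH channel was not above local background on any measured array, and in 12 of these the TXOX channel was not either. A bound of at least 1-fold was obtained for 48 of the other 56 lowered probes, with a median of at least 1.18-fold and a largest value of at least 2.13-fold. No fold is given for the 26 probes below local background in both channels. Where a signal above local background in 1 channel was also required on all measured GH arrays, 287 raised and 207 lowered probes were called.

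Changed probes were more common among bright than among dim probes. When the 20984 probes were divided by mean intensity into 4 groups of 5246, the dimmest held 1.22% raised and 0.743% lowered probes and the brightest 2.63% raised and 2.25% lowered. The median standard error was 0.186 in the dimmest and 0.121 in the brightest of these groups. The largest log2 ratio was 1.33 among the dimmest and 5.27 among the brightest probes. The offset of the background correction compresses the ratios of dim probes, so sizes of change are not compared between them.

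Each GH array was next set against calls made without it, which gives values on arrays that the choice of probes did not use. The calls required a value on the other 3 arrays. Probes called as raised numbered 482, 342, 300 and 261 without replicates 1 to 4. On the array left out, 93.5%, 96.1%, 99.3% and 97.7% of those measured had a positive log2 ratio, against 49.2% to 50.4% of all probes measured there. Their median on that array was 0.46, 0.68, 0.74 and 0.78, compared with 0.79 to 0.81 on the arrays that chose them. Thus replicate 1 was furthest below the arrays that chose the probes. Probes called as lowered numbered 323, 167, 216 and 170, and 86.6%, 93.3%, 95.8% and 96.5% of those measured were negative on the array left out. Their median there was −0.45, −0.72, −0.54 and −0.68. With the loess fitted within printed blocks, these shares were 92.9% to 98.5% of raised and 90.1% to 97.5% of lowered calls. The dye cannot be told apart from GH on the array left out either. A probe also keeps its place on the slide there. With 1 loess curve per array, the part of that place in these shares was not tested.

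**Figure D3:**
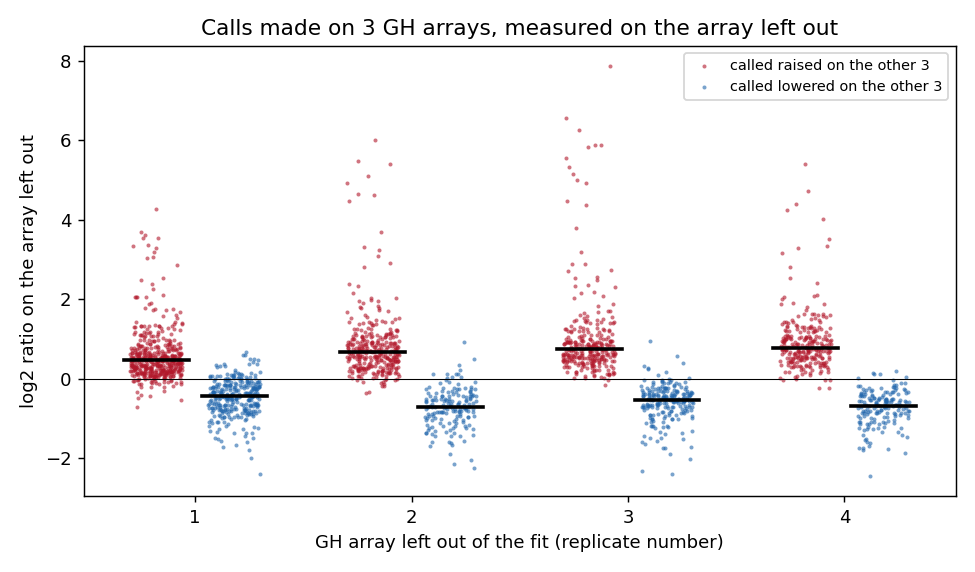
Log2 ratio on the GH array left out (vertical axis) of the probes called on the other 3 arrays, for each replicate left out (horizontal axis), with raised probes in red, lowered probes in blue and the median as a bar. The medians of the raised probes lie between 0.46 and 0.78 and those of the lowered probes between −0.72 and −0.45.

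Position on the slide bears on these counts. Differences between the 48 printed blocks made up 20.4% of the variance in the mean log2 ratio after GH. On replicates 1 to 4 they made up 7.26%, 6.54%, 15.5% and 27.3% of the variance, so replicate 4 had the largest share. The median log2 ratio of a block ran from −0.23 in block 3 to 0.40 in block 47, and it rose from the first row of blocks (−0.18) to the last (0.32). Blocks 41 to 48 held 16.8% of the probes tested and 62.6% of the raised ones, 273 of 436, but only 7 of the 280 lowered ones. Conversely, the first row of 4 blocks held 15 raised and 46 lowered probes, and the last row 186 raised and 3 lowered. Without blocks 41 to 48, an alternative added after the data were seen, 151 probes were raised and 249 lowered.

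With a separate loess curve for each printed block, the blocks made up 0.232% of the variance, and GH changed 369 probes (1.76%), 196 higher (0.934%) and 173 lower (0.824%). Of these, 311 had also been called with 1 curve per array, 170 of them higher and 141 lower. Large changes were kept. All 20 raised probes with a log2 ratio of 2 or more were called with either loess, as were 56 of 68 raised probes between 1 and 2 and 40 of 45 lowered probes of 1 or more in size. Of the changes under 1 in size, 94 of 348 raised and 101 of 235 lowered probes were called with either loess. Each of the 716 probes kept its sign. Outside blocks 41 to 48, 137 of 163 raised probes were called with either loess, and within them 33 of 273. Only 1 of the 20 probes raised by 2 or more lay in blocks 41 to 48. Each of the 30 probes of the lists above was called with the loess within blocks. Whether any single probe of smaller change in blocks 41 to 48 responded to GH or to its place on the slide cannot be told from these arrays.

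**Figure D4:**
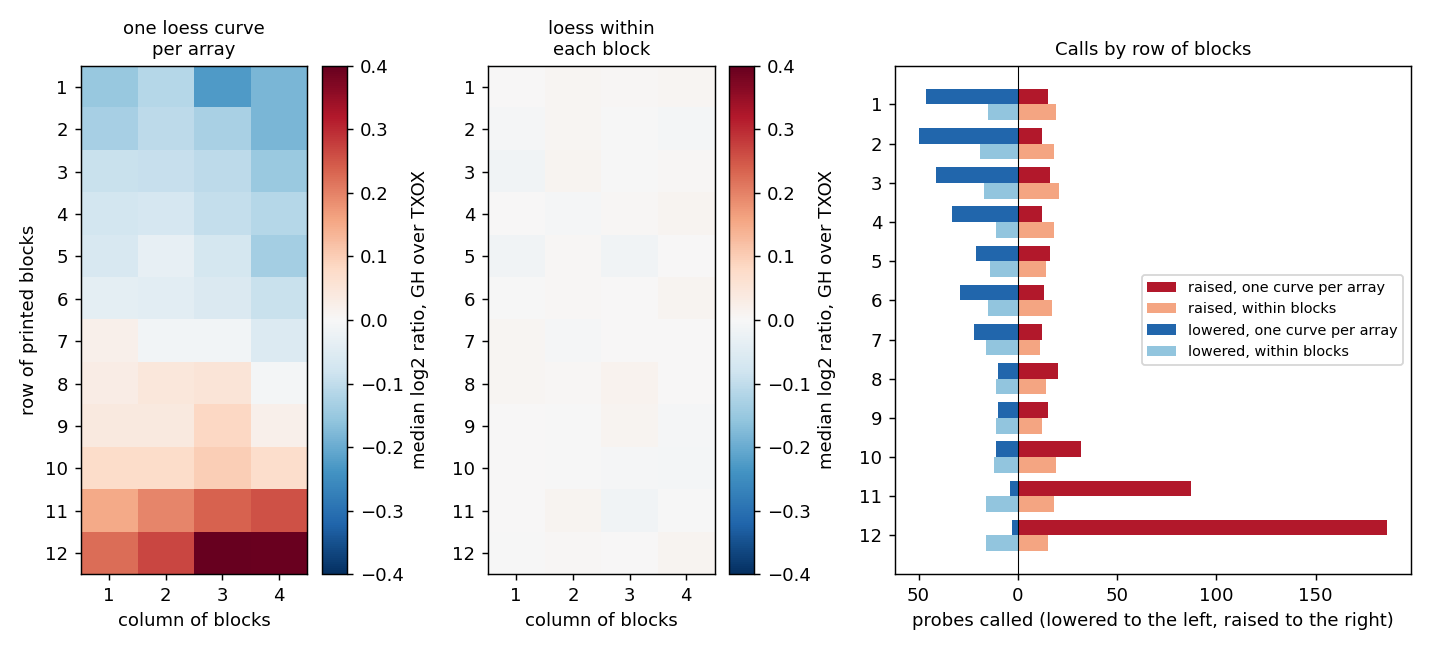
Median log2 ratio of GH over TXOX in each of the 48 printed blocks, as 12 rows of 4 blocks, with 1 loess curve per array (left) and with the loess within blocks (middle), and the number of probes called in each row of blocks under both (right, lowered to the left and raised to the right of 0). With 1 curve per array, raised probes number 186 in the last row and 15 in the first, and within blocks 15 and 19.

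The log2 ratios that the authors deposited gave smaller counts. With the same test on the values of 15687 probes, 351 were changed (2.24%), 219 higher and 132 lower. The values correlated with the ratios computed here by 0.89 to 0.981 across probes on the 4 arrays, with slopes of 0.702 to 0.861, so the direction of the ratio is the same and its size is smaller in the deposited values. Of the 436 raised probes 362 had enough deposited values to be tested, and 208 of these were called higher. Of the 280 lowered probes 247 were tested, and 129 were called lower. All 362 and all 247 had the same sign as here. The deposited values also varied by printed block, which made up 19.1% of their variance, and 47.5% of the raised probes lay in blocks 41 to 48. A set of 224 probes, 129 higher and 95 lower, was called with 1 loess curve per array, with the loess within blocks and in the deposited values. The 4 raised probes of the list above that could not be tested in the deposited values included Rn30016143 and Rn30009561, which lacked a value there on 3 and 2 of the 4 GH arrays.

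Repeated spots give the technical spread of these ratios. The 22 control oligonucleotides, each spotted 11 or 12 times, had a spot-to-spot SD of the log2 ratio within an array of 0.129 to 0.801, with a median of 0.31. Their mean log2 ratio over the GH arrays ran from −0.07 to 0.42, with a median of 0.13, and none reached 0.58. The mean was positive for 20 of the 22, whereas the median over all probes tested was −0.0028. Whether this lean towards Cy5 bears on the raised calls was not tested. Of the 12 probes that were printed 12 times each, none was called, and the means of their copies over the GH arrays spanned a median of 0.71 and up to 1.54 on the log2 scale.

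Which of the changes differed from those of E2 was tested by the contrast of the GH and E2 arrays, in which an effect of the dye that is alike on all arrays cancels. TXOX animals are the reference of both groups, and whether the same ones were used is not given in the sources used here. The time from the last injection also differed, at 12 h for GH and 24 h for E2, and cannot be told apart from the treatment. The contrast called 209 of 18879 probes (1.11%), 131 higher (0.694%) and 78 lower (0.413%) after GH than after E2. The 131 higher probes had a median log2 ratio to TXOX of 0.59 after GH and −0.44 after E2, and the 78 lower probes had −0.33 after GH and 0.73 after E2. These probes were chosen by the difference itself, so the medians describe them. With the loess within printed blocks 181 probes were called, and 152 of them were among the 209. The count was 121, 134 and 121 without GH replicates 1, 2 and 3, and 127 and 114 without E2 replicates 1 and 3.

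The 388 raised probes that could be tested after E2 had a median log2 ratio of 0.40 after E2 and 0.75 after GH, and the contrast called 72 of them, 67 farther from 0 after GH and 5 nearer. The 275 lowered probes tested after E2 had a median of −0.35 after E2 and −0.71 after GH, and 27 were called, all farther from 0 after GH. Over all probes tested the median after E2 was 0.0043, and the contrast called 1.11% of the 18879 probes tested. Since GH values chose both lists, larger ratios after GH are favoured by that choice. E2 also carried Cy5 over TXOX on every array, and 62.6% of the raised probes lay in blocks 41 to 48. How much of the E2 medians comes from the dye, the reference or the place on the slide was not tested.

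Of the 15 probes raised most by GH, 12 were higher after GH than after E2 by the contrast, against 0.694% of the 18879 tested. For 12 of the 15 every GH array lay above every E2 array, against 4.58% of the 18879 probes tested. The choice of high GH values favours both. The median log2 ratio of the 15 was 3.92 after GH, −0.49 after E2 and 3.27 after E2 plus GH. For some of the 15, the saturated GH pixels and the TXOX channel near local background, given above, limit these ratios and differences. Rn30016143 was at −1.29, 0.31, −2.12 and −0.82 on the E2 arrays, a mean of −0.98 ± 1.01 (SD, n = 4), and the difference of GH from E2 was 6.25 (limma standard error 0.823, adjusted p = 6.96e-04). Rn30009561 rose also after E2, with 3.15, 2.70, 3.03 and 4.78 on the 4 arrays. Its difference of GH from E2 was 1.60 (limma standard error 0.447, adjusted p = 0.108), and replicate 1 of GH, at 3.69, lay within the range of the E2 arrays. Without GH replicate 1 this difference was 2.04 (adjusted p = 0.028, limma). The fourteenth of the raised probes had 3.86 after E2 and 2.55 after GH, a difference that did not pass (limma-adjusted p = 0.0793).

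Among the 15 probes lowered most by GH the difference from E2 passed in 3, against 1.11% of the 18879 probes tested. The choice of low GH values favours such a difference. The median log2 ratio of the 15 was −1.43 after GH, −0.58 after E2 and −1.24 after E2 plus GH. Rn30012374 had a mean of −1.80 ± 0.43 and Rn30012333 one of −2.43 ± 0.84 after E2 (SD, n = 4 each), and neither difference from GH passed (limma-adjusted p = 0.837 and 0.417). The fourth of the lowered probes moved in opposite directions. It was at −1.27, −1.69, −1.20 and −1.88 after GH, at 1.61, 0.70, 1.15 and 1.29 after E2, and at −2.25, −1.98, −1.16 and −0.67 after E2 plus GH. Its difference between GH and E2 was −2.70 (limma standard error 0.293, adjusted p = 1.40e-04), and no GH array overlapped the E2 arrays. This probe was singled out after its values were seen, and its GH channel was not above local background on any GH array.

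The contrast of the GH and E2 plus GH arrays tested whether ratios to TXOX differed where E2 was given beside GH. Any effect of E2 itself enters this difference, so whether E2 modified the response to GH was not tested. The contrast called 0 of 18695 probes with limma, and 1111 had an unadjusted p under 0.05 (5.94%). Same-numbered arrays of the 2 groups departed from their group means together, and a fit to these 8 arrays that took the replicate number as a block called 75 probes (0.401%), 53 higher and 22 lower after GH alone. This fit was chosen after earlier results were known, and its pairing was taken from the values of these same arrays, not from the labels. Its p-values therefore only describe these arrays. With the block over all 12 arrays the contrast called 0 (fixed block) or 2 (random block), so the call rests on the arrays in the fit. The 53 higher probes had a median log2 ratio of 0.44 after GH and −0.58 after E2 plus GH, and the 22 lower probes −0.50 and 0.41. These probes too were chosen by the difference, so the medians only describe them.

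Among the 15 probes raised most, the GH and E2 plus GH arrays overlapped for 14. Over all 18695 probes tested they overlapped in 96.1% and did not in 3.92%, so overlap is the usual state and shows no likeness of the treatments. The exception, the twelfth, had 3.45 after GH and 1.62 after E2 plus GH, a difference of 1.83 (limma-adjusted p = 0.263 without and 0.0169 with the block on 8 arrays). Rn30016143 was at 2.99, 4.97, 6.04 and 2.60 after E2 plus GH, and its difference of 1.13 from GH passed only with the block on 8 arrays (limma-adjusted p = 0.895 without and 0.035 with it). Rn30009561 was at 4.09, 4.25, 5.33 and 4.32 after E2 plus GH, a difference of 0.52 (limma-adjusted p = 0.91 without and 0.359 with the block). All 15 lowered probes had overlapping GH and E2 plus GH arrays. Rn30012374 was at −2.99, −2.53, −2.26 and −1.62 after E2 plus GH, and its difference of 0.35 did not pass (limma-adjusted p = 0.905 without and 0.566 with the block). Rn30012333 was at −1.82, −3.02, −3.24 and −2.32 after E2 plus GH, lower than after GH by 0.95, which passed with the block on 8 arrays only (limma-adjusted p = 0.764 without and 0.0174 with it).

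**Figure D5:**
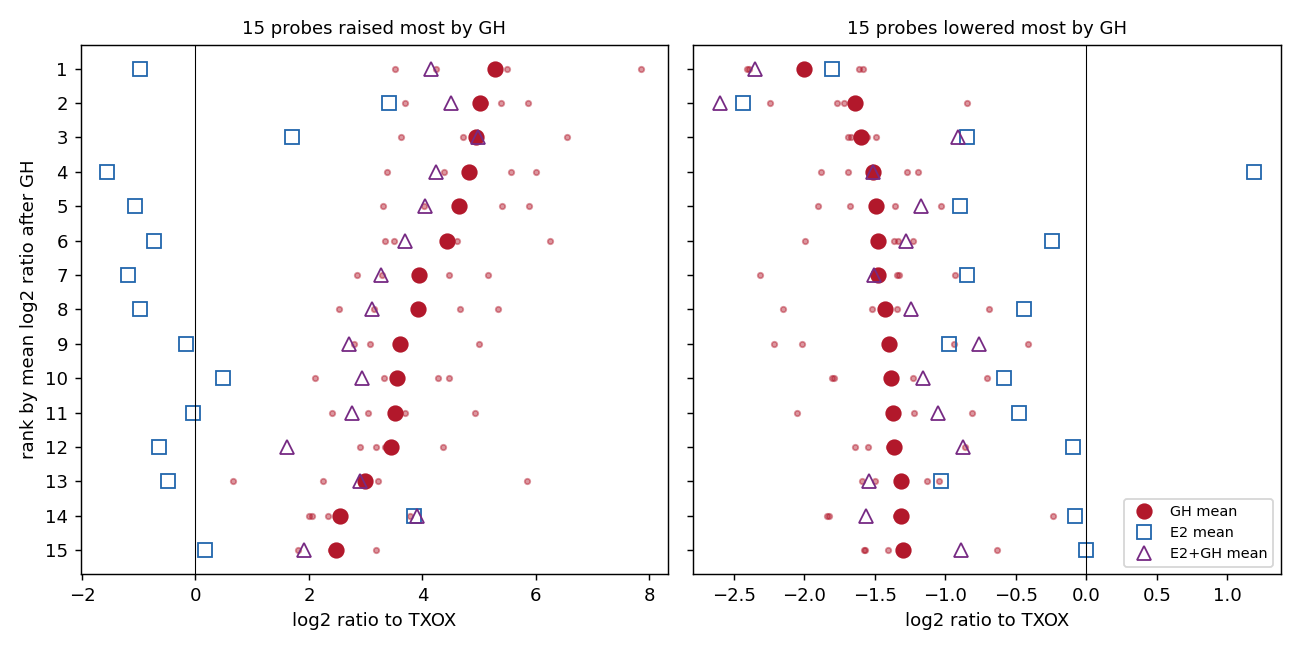
Log2 ratio to TXOX of the 15 probes raised most (left) and the 15 lowered most (right) by GH, ranked by the mean after GH, with the 4 GH arrays (small points) and the means of GH (large points), E2 (squares) and E2 plus GH (triangles). For the raised probes the E2 means run from −1.55 to 3.85 and the E2 plus GH means from 1.62 to 4.99, and for the lowered probes the E2 means run from −2.43 to 1.19.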

How the data were processed

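Hepatic RNA (5 µg per sample) was hybridised as Cy5 (treated) and Cy3 (TXOX) on 12 arrays, as the channel descriptions give it (the source fields give the treated group for either dye). The authors scanned the slides and deposited GenePix Pro 6.0 intensities (foreground and local background medians), spot flags, a signal-to-noise score, and for each spot the percent of saturated pixels and of pixels above local background plus 2 SD. A value table, deposited beside these, holds the authors' log2 ratios after LOWESS (22163 entries), whose exact centring is not given in the sources used here. The medians of its GH columns were −0.009, 0.008, 0.008 and 0.006.

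Background was corrected by normexp (offset 50) in limma 3.58.1 under R 4.3.3, and log2 ratios were normalised by 1 loess curve per array. After removal of 554 empty or control spots and averaging of repeated probes, 26962 probes were left. The values of flagged spots were treated as missing. All 12 arrays entered 1 linear model with a coefficient for each treatment (9 residual degrees of freedom) and an intensity trend of the variance, and p-values were adjusted by Benjamini-Hochberg. Per-channel bounds used loess and Aquantile scaling. The number of arrays limits the precision. Individual animals were compared, but which TXOX animal was on which array is not given in the sources used here, so p-values measure the spread between these arrays.

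Named probes were the 15 raised and 15 lowered most among called probes with the same sign on every GH array and a signal above local background on all 4, of which 2 each are given by identifier. Gene lists and marker genes could not be applied, since the files used here pair no gene with a probe. The arrays, lists and rules were chosen with earlier results of these data known. Same-numbered arrays given GH, without and with E2, deviated from their group means together (correlations across probes of 0.288 to 0.427), so the data, not the labels, pair them. Correlations of −0.165 to 0.207 were found for GH with E2 arrays, and these were not taken as pairs.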

Additional observations from a re-analysis of the deposited data

Results flagged for a closer look

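Rn30016143 was flagged because its GH and E2 effects differed in the contrast of those arrays, by 6.25 on the log2 scale (limma-adjusted p = 6.96e-04), with every GH array above every E2 array. The same contrast differed in 209 probes. The loess within printed blocks called 181, and 171 were called without blocks 41 to 48.

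A signal was also present in control spots that no test between treatments used, although their ratios entered the technical spread above. The control spots named Alien were above local background in Cy5 on 68.2%, 60.9%, 82.7% and 79.1% of 110 spots on GH replicates 1 to 4, against 13.4%, 12.7%, 36.6% and 20.3% of the 306 empty spots. In Cy3 the shares were 72.7%, 63.6%, 72.7% and 76.4%, against 19.3%, 16.7%, 36.6% and 22.9% of the empty spots. What these control oligonucleotides were hybridised to is not given in the sources used here.

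No array stood apart in any of the 31 groups of 4 values checked for a lone sample, which covered the 4 named probes in the 3 treatments and the quality measures of the arrays. Chance flags about 1 in 20 such groups.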

How the results depend on the processing

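The counts for GH against TXOX (716 changed, 436 raised, 280 lowered) moved by over 1.5 times with the loess within printed blocks (369, 196 and 173), without background correction (361, 225 and 136), in the deposited values (351, 219 and 132), without the fold threshold (1466, 868 and 598), and for the raised probes with a signal above local background required (287). Without blocks 41 to 48, an alternative added after seeing the data, 400 probes were changed and 151 raised. The other alternatives (background subtracted, median centring, scaling between arrays, 4 values or 2 or more, flagged spots kept, the GH arrays alone, robust or untrended variance, SAM) gave 597 to 940 changed, SAM 730. The share of raised among changed probes was 60.9%, 53.1% within blocks and 37.8% without blocks 41 to 48. Leaving out each GH array gave 426 to 807 changed, 255 to 490 raised and 167 to 317 lowered. The replicate number as a block on the 12 arrays gave 789 (fixed) and 718 (random) changed.

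The difference between GH and E2 (209 probes) ran from 121 to 140 without each GH array and from 114 to 158 without each E2 array (added after seeing the data), and with the replicate block it was 294 (fixed) and 311 (random). The difference between GH and E2 plus GH (0 probes) was 3 with the loess within blocks, 2 with a random replicate block on 12 arrays, 0 to 2 without each E2 plus GH array, and 75 with the replicate block on the 8 arrays alone (73 with the loess within blocks as well), the last 3 chosen after the data were seen. The cause of these changes was not tested.

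The 4 named probes kept their direction and their call after GH under each alternative that gave a value. The log2 ratio of Rn30012374 ran from −3.43 (background subtracted) to −1.44 (the deposited values), and Rn30016143 and Rn30009561 had no value to test in the latter. The difference of Rn30009561 from E2 passed with the fixed block on 12 arrays (adjusted p = 0.0379, limma), without GH replicate 1 (0.028) and without E2 replicate 4 (0.0223), over a range of 0.0223 to 0.263. Gene lists, the sentinel genes and averages by gene were not run, since the files used here pair no probe with a gene. Signal near local background limits the size of change in dim probes.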
